A study of Rattus norvegicus with 12 samples.

Results

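Fatty acid activation and beta oxidation was followed through 33 genes, chosen by name and read on every probe set that the array annotation gave to that gene alone. Of these, 32 genes had 45 probe sets of their own among the 14217 genes measured this way. The remaining gene, Acaa1a, the peroxisomal thiolase, was present only on a probe set shared with Acaa1b and has no value here. Messenger RNA of rat heart tissue had been hybridised to 12 one-colour arrays, 6 from failing and 6 from control hearts, and the labels call them biological replicates. The series title places them in the spontaneously hypertensive rat, inbred for hypertension, whose heart thickens and later fails in systole. No source used here gives the strain, age, sex or treatment of the control rats, so no model beyond "failing" and "control" can be stated for either group. The protocol also names failing hearts given captopril, alone or with butyrate, which were not analysed here.

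Fatty acids are the main fuel of the adult heart. A fatty acid is first joined to coenzyme A, then carried into the mitochondrion as a carnitine ester, and there shortened in repeated rounds of dehydrogenation, hydration, dehydrogenation and cleavage by a thiolase. The electrons of the first dehydrogenation pass through the electron transfer flavoprotein to ubiquinone. Many of these genes are targets of the nuclear receptor PPAR-alpha and of the estrogen-related receptors, and a lowered expression of the pathway is well known in pressure-overloaded and failing hearts.

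Most of the pathway was lower in failing than in control hearts, by modest amounts, and few single genes passed the test with all 12 hearts. Values are log2 of the deposited intensity, so a difference of 1 is a doubling, and each difference is failing minus control with its standard error (SE). A probe set was tested when its mean over the 12 arrays was at or above the median of all probe sets (6.94, an intensity of 123), which kept 39 of the 45 probe sets and 31 of the 32 genes. It is said to have risen or fallen only where limma's adjusted p was below 0.05. With all 12 hearts 2 of the 39 probe sets fell, Acsl1 and Hadh, against 1.48% of the 15521 probe sets tested, and 0 rose, against 2.76%. At an unadjusted limma p below 0.05 the members counted 15 lower and 2 higher, beside 12% and 13.2% of all tested. An exact rank-sum permutation test called 0 members either way, but also 0 of all 15521 probe sets. The smallest p that this rank-sum test can give with these group sizes is 0.00216, which did not pass the adjustment here. Its count therefore says nothing about the members.

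The number of lower calls changed with almost every heart left out, and was highest without control replicate 4. Control replicate 4 was the lowest of the 6 controls in 23 of the 31 genes tested (1 probe set each), whereas it was the lowest in 28.9% and the highest in 28% of all 9409 genes tested. Without it 15 probe sets of 13 genes fell, against 6.75% of all tested, and 1 rose, Acsl4, against 6.67%. The fit without this heart was chosen with that knowledge. Leaving out any 1 of 10 other hearts ended both calls made with 12 arrays (highest limma adjusted p 0.0894 for Acsl1 and 0.107 for Hadh). Without failing replicate 5 there were 5 lower calls and 1 higher, Acsl4, beside 659 lower and 804 higher of all 15521 probe sets. Without control replicate 4 and each further heart in turn, 9 to 20 probe sets fell, the fewest without control replicate 1. The share of all probe sets was not computed for these fits, so these counts cannot be set against it. Called in all 11 of these fits were both probe sets of Acsl1, Cpt2, Crat, Hadh, the dimmer probe set of Acaa2, Eci2, Ehhadh and Etfdh, and Acsl4 among the rises. Hsd17b10 was called in 10 of them, Cpt1b in 5, Echs1, Etfa and the other probe set of Acaa2 in 3, and Acadvl in 2.

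With no filter on dim probe sets limma called 0 of the 45 probe sets in either direction with 12 hearts, where all 31042 probe sets also gave 0% higher and 0% lower (15 and 2 members at an unadjusted p below 0.05), and again 0 of the 45 without control replicate 4, beside 0% higher and 0.00322% lower of all.

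The median difference of the 39 probe sets was -0.37, with 35 below 0 and 4 above, beside a median of -0.0002 over all tested, where 7771 lay below 0 and 7750 above. Without control replicate 4 it was -0.52, beside 0.01 over all. With 1 probe set per gene, mitochondrial oxidation had 13 of 13 genes below 0 (median -0.37), the carnitine shuttle and its control 5 of 6 (median -0.37) and electron transfer 3 of 3 (median -0.28). Activation and hydrolysis of acyl-CoA, read on the synthetases and the thioesterase Acot2, was mixed, with 4 of 6 genes below 0 (median -0.19). Acot2, at -0.36, was 1 of these 4, and no median was computed for the synthetases alone. In the same order, the medians of these steps without control replicate 4 were -0.52, -0.47, -0.37 and -0.21. The last step then had 3 genes below 0 and 3 above. These hearts are bulk tissue, in which fewer cells of a type and less RNA per cell cannot be told apart.

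**Figure D1:**
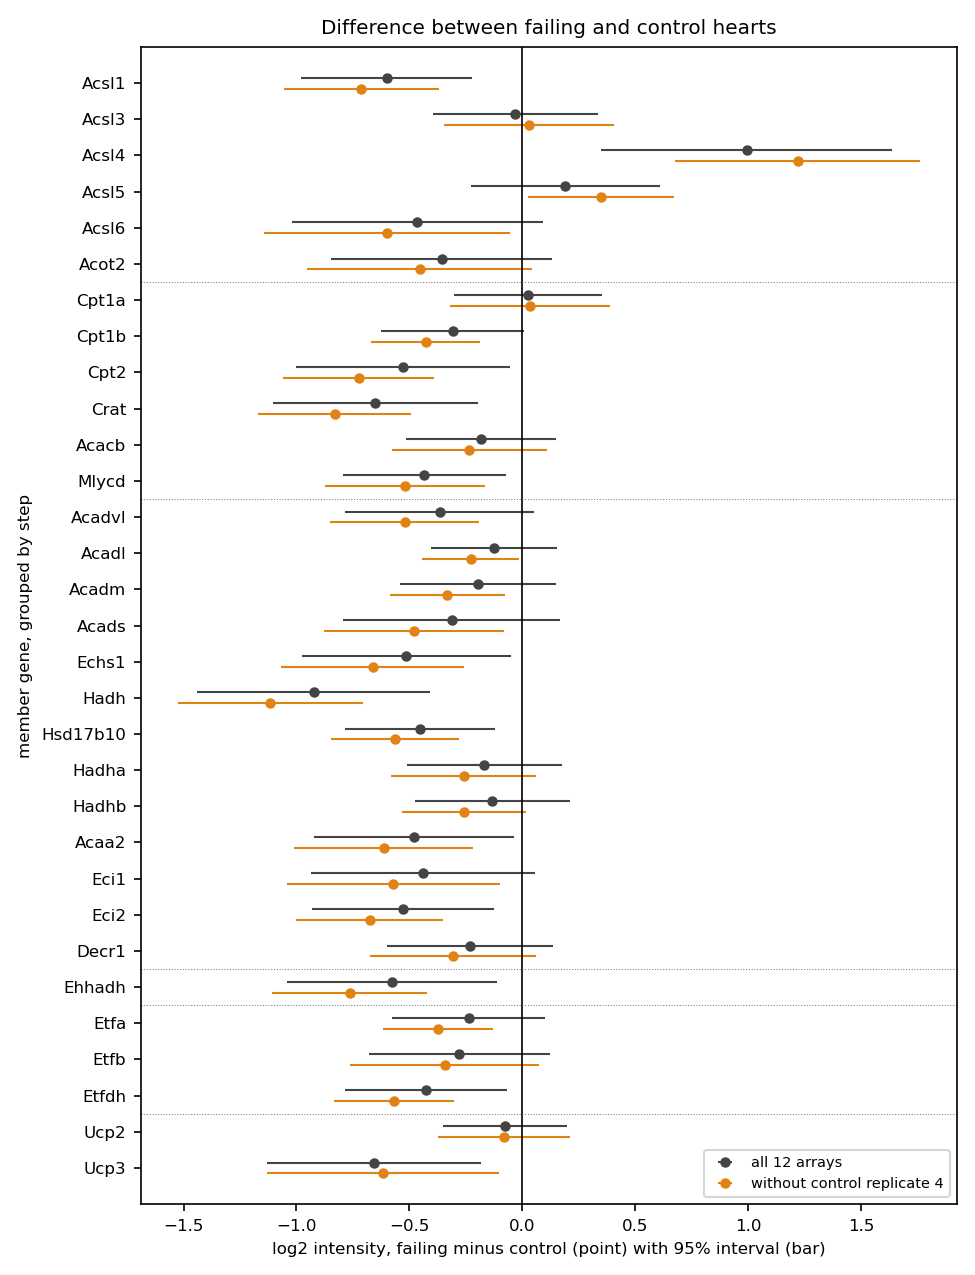
Difference in log2 intensity, failing minus control, for the 31 genes tested (1 probe set each, grouped by step), with 95% intervals from all 12 arrays (grey) and without control replicate 4 (orange). All 13 genes of mitochondrial oxidation lie left of 0, Hadh farthest at -0.92, while Acsl4 lies farthest right at 0.99.

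As a check of the tissue, 11 of 12 cardiomyocyte markers were measured and all 11 were among the brighter probe sets. Their summed intensity ran from 294200 to 459000 in failing and from 290700 to 470700 in control hearts, where the lowest value was control replicate 4. No cardiomyocyte marker passed with all arrays, Myh6, the alpha myosin heavy chain, coming nearest (-1.03, limma adjusted p = 0.0774), and it alone fell without control replicate 4 (-1.23, 0.0222). The cardiomyocyte list nevertheless lay below 0, with a median difference of -0.16, and of -0.26 without control replicate 4. Fibroblast markers rose in 3 of 8 genes and their sums ran from 70540 to 131400 in failing and from 56200 to 80870 in control hearts. Endothelial markers rose in 1 of 6, but Kdr, Egfl7 and Tie1 lay below 0 and the median difference was 0.008. Their sums ran from 10840 to 16210 in failing and from 9425 to 12150 in control hearts. Macrophage markers rose in 2 of 7, with a median difference of 0.71 and only Adgre1 below 0 (-0.58). The macrophage sums ran from 14570 to 30240 in failing and from 9847 to 15720 in control hearts. The rises without control replicate 4 were 3 fibroblast, 2 endothelial and 3 macrophage markers. The 4 smooth muscle markers all lay above 0 without passing the test (median difference 0.80, limma adjusted p from 0.0565 to 0.21), with sums from 2522 to 5885 in failing and from 1598 to 2848 in control hearts. None of the 3 atrial markers was called in either fit. Their sums spread widely, from 802.4 to 6628 in failing and from 358.3 to 18300 in control hearts. The part of the cell type markers in the results below was not tested. Of the adipocyte markers the defining Adipoq, Plin1, Lep and Cidec were all dim, and the sum of the list ran from 11250 to 13450 in failing and from 13260 to 17650 in control hearts. That sum is mostly Fabp4 (mean 13.69, difference -0.26), since the next brightest was Cfd (mean 8.62, difference 0.73). Neither was called.

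Promoters of 6 members are shown, 5 of them of genes called without control replicate 4. They are examples of windows with and without the motif of a known regulator of the pathway. Each is the 250 bases before the annotated start, from RefSeq on the rat build GRCr8, on the strand of the gene, and 29 of the 33 members had an entry. Acaa2, Acadl, Cpt1b and Decr1 had none in the table. Capitals mark AGGTCA or its reverse complement, the hexamer that PPAR-alpha and related receptors read, searched on both strands. Of the 12 genes with an entry that were called without control replicate 4, 10 had no such hexamer in this window. The first group shows 3 of these, both genes that fell with all 12 hearts and the gene that rose without control replicate 4, namely Acsl1 (chr16:52532393-52532642, minus strand), Hadh (chr2:222504447-222504696, minus strand) and Acsl4 (chrX:110803262-110803511, minus strand).
Acsl1: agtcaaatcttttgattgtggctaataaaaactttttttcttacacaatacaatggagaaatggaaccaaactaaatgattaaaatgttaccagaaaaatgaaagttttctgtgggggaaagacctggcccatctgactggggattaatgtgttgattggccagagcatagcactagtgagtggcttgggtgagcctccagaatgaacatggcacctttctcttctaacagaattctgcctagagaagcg
Hadh: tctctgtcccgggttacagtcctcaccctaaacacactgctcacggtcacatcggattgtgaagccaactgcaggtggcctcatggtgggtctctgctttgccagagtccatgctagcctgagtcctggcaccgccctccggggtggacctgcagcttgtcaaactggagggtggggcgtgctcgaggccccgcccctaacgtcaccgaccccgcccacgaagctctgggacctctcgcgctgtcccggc
Acsl4: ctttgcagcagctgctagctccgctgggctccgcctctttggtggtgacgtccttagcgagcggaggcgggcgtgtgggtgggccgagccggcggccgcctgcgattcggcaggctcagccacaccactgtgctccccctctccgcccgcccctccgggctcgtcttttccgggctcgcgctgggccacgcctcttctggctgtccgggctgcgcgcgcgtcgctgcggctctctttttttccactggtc

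The second group holds the 2 genes called without control replicate 4 whose window has the hexamer. They are Echs1 (chr1:204333507-204333756, minus strand) and Acadvl (chr10:55236706-55236955, minus strand), and neither was called with all hearts. The match in Echs1 lies 93 to 88 bases before the start, and those in Acadvl lie 169 to 164 and 17 to 12 bases before it.
Echs1: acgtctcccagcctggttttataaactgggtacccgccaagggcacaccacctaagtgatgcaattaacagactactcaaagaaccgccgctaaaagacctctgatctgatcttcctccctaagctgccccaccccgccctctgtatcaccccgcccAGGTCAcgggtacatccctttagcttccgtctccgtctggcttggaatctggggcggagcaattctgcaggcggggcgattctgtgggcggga
Acadvl: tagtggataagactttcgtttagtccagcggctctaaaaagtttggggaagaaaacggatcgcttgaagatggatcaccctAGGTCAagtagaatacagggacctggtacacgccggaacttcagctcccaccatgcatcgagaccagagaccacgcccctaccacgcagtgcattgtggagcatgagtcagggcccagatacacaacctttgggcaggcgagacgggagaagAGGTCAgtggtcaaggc

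The last sequence is the divergent promoter of Hadhb, a gene called in neither fit (chr6:31907501-31907750, minus strand). It shares 200 bases with the window of Hadha on the plus strand, since the starts of both genes lie 300 bases apart.
Hadhb: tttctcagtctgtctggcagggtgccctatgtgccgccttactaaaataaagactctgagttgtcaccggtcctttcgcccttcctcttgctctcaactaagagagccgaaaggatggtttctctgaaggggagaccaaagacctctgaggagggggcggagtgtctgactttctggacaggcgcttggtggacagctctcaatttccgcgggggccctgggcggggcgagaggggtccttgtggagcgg

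The hexamer was in 5 of the 29 member promoters (17.2%: Acacb, Acadvl, Echs1, Eci1 and Ucp3) and in 14.1% of all 33469 promoters of this length. The direct repeat AGGTCANAGGTCA, which contains it, was in 0 of 29 and 0.0508% of all, and TCAAGGTCA, the motif of the estrogen-related receptors that also contains it, in 0 of 29 and 0.388% of all. A missing match says only that these letters are not in this window.

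Activation is carried out by the long-chain acyl-CoA synthetases, of which Acsl1 is the main form in heart muscle. On the dimmer of its 2 probe sets tested Acsl1 ran from 11.61 to 12.38 in failing hearts (median 11.81, n = 6) and from 12.16 to 13.04 in control hearts (median 12.54, n = 6). All failing hearts but replicate 5 lay below every control, and without control replicate 4 the groups did not overlap. The difference was -0.71 ± 0.16 (SE), 1.63-fold lower, with a limma adjusted p of 0.0355, and -0.79 with 0.0145 without control replicate 4. The brighter probe set ran from 12.64 to 13.49 in failing and from 13.08 to 14.09 in control hearts. Its difference of -0.60 ± 0.18 missed the threshold (limma adjusted p = 0.0635) and passed without control replicate 4 (-0.71, 0.0179). Another probe set of Acsl1 was below the brightness limit.

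Acsl4, a synthetase with a preference for arachidonic acid, went the other way. It ran from 9.06 to 10.66 in failing hearts (median 9.98) and from 8.41 to 10.03 in control hearts (median 8.72). The value of 10.03 was control replicate 4, and the other 5 controls stayed at or below 8.91, under every failing heart. The difference was 0.99 ± 0.30, 1.99-fold higher, with a limma adjusted p of 0.0693 over all hearts. Without control replicate 4 Acsl4 rose by 1.22 (limma adjusted p = 0.015), 1 of 604 probe sets (3.89%) in which all failing hearts lay above the remaining controls. Over all 12 hearts 276 probe sets (1.78%) were separated in this direction, with 0 members among them.

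The other synthetases showed no call in either fit. Acsl3 differed by -0.03 ± 0.17 and changed sign to 0.03 without control replicate 4. Acsl5 differed by 0.19 ± 0.19 on 1 probe set and -0.18 ± 0.20 on the other, and by 0.35 and -0.12 without that heart (limma adjusted p = 0.129 and 0.73), so its probe sets disagreed in sign. Acsl6, best known from brain, differed by -0.47 ± 0.26 (limma adjusted p = 0.276) and by -0.60 without control replicate 4 (0.122), and its dim probe set lay lower by 1.22 without being tested in this fit.

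The thioesterases Acot1 and Acot2 release fatty acids from coenzyme A in the cytosol and in the mitochondrion. The 3 probe sets of Acot2 differed by -0.27 to -0.37, with limma adjusted p from 0.321 to 0.476, and by -0.35 to -0.53 without control replicate 4. Acot1 was dim, at 4.42 to 6.06 in failing and 4.95 to 7.70 in control hearts, and was left out of the main fit. A probe set annotated to both genes was not used.

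**Figure D2:**
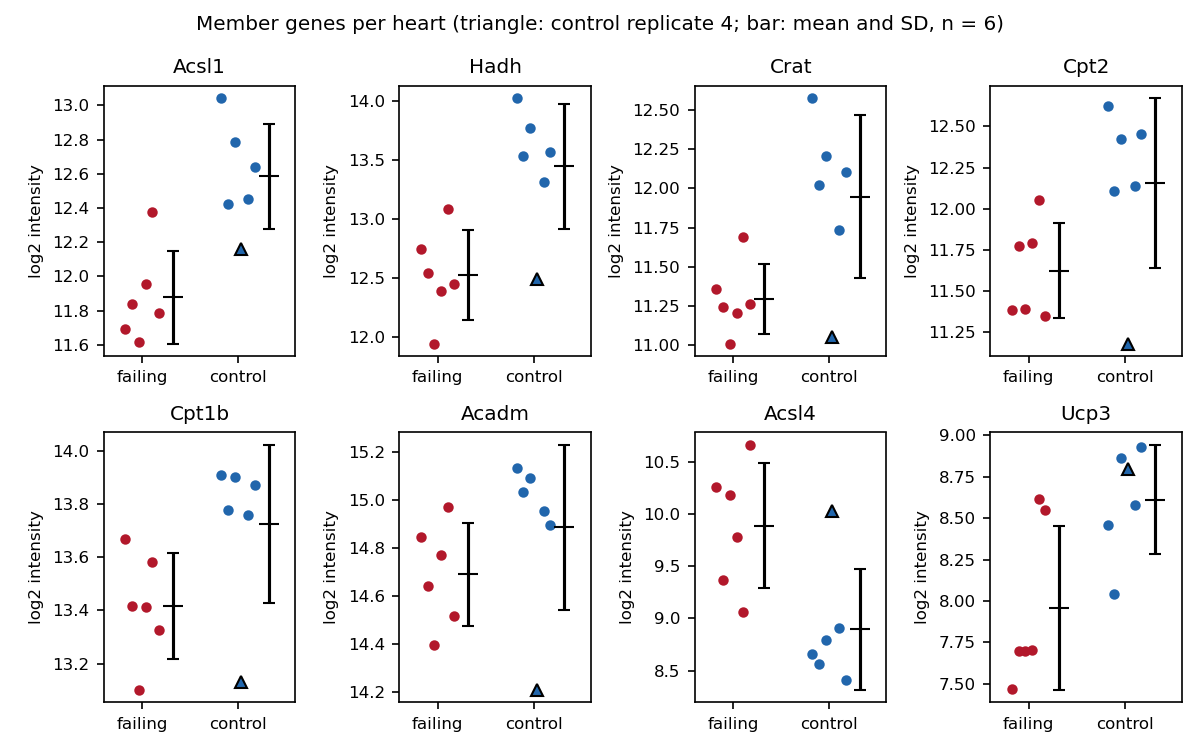
Log2 intensity of 8 genes in each heart (red failing, blue control, the triangle is control replicate 4), with mean and SD of 6 hearts per group; Acsl1 is the dimmer and Ucp3 the brighter of 2 probe sets tested. Control replicate 4 lies with or below the failing hearts in Cpt2, Crat, Cpt1b and Acadm, and with them at 10.03 in Acsl4, but among the controls in Ucp3.

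The carnitine shuttle brings the activated chain into the mitochondrion. Cpt1b, the muscle form of the outer-membrane transferase, ran from 13.10 to 13.67 in failing hearts (median 13.41) and from 13.13 to 13.91 in control hearts (median 13.83). The 13.13 belonged to control replicate 4, and the other controls kept within 13.76 to 13.91, above every failing heart. The difference was -0.31 ± 0.15 (limma adjusted p = 0.209), and without that heart Cpt1b fell by 0.43 (0.0281).

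Cpt2, the inner-membrane transferase that hands the chain back to coenzyme A, ran from 11.35 to 12.05 in failing hearts (median 11.58) and from 11.18 to 12.62 in controls (median 12.28). Control replicate 4 was the lowest of all 12, and the other controls began at 12.11, above all failing hearts. Its difference was -0.53 ± 0.22 (limma adjusted p = 0.156), and Cpt2 fell by 0.72 without that heart (0.0165).

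Crat, which exchanges short acyl groups between coenzyme A and carnitine, ran from 11.01 to 11.69 in failing hearts (median 11.25) and from 11.05 to 12.57 in controls (median 12.06). Here too only control replicate 4 overlapped the failing hearts, since the other 5 controls started at 11.73. Crat differed by -0.65 ± 0.21 (limma adjusted p = 0.0842) and fell by 0.83 without it (0.0127), which is 1.78-fold.

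Cpt1a, the form that dominates in liver, did not follow Cpt1b. Its probe sets differed by 0.03 ± 0.15 and 0.29 ± 0.13 (limma adjusted p = 0.939 and 0.193), and on the second 5 of 6 failing hearts lay above all controls. Leaving out control replicate 4 gave 0.03 and 0.34 (0.911 and 0.113). The first of these reversed to -0.09 when arrays were weighted. Of the enzymes that set malonyl-CoA, the inhibitor of the outer-membrane transferase, Mlycd, which breaks it down, differed by -0.43 ± 0.17 (limma adjusted p = 0.132), and by -0.52 without control replicate 4 (0.052). Acacb, which makes it, differed by -0.18 ± 0.15 (0.484) and by -0.24 without it (0.329).

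Within the mitochondrion the acyl-CoA dehydrogenases open each round, and each handles another range of chain lengths. Acadvl, for very long chains, ran from 11.89 to 12.71 in failing hearts (median 12.30) and from 11.85 to 13.04 in controls (median 12.71). Without control replicate 4, the lowest of the 12, 5 of 6 failing hearts lay below all controls. Acadvl differed by -0.37 ± 0.19 (limma adjusted p = 0.257) and fell by 0.52 without that heart (0.0413).

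Acadl and Acadm, for long and medium chains, passed the test in neither fit. Acadl ran from 14.61 to 15.03 in failing hearts (median 14.85) and from 14.45 to 15.11 in controls (median 15.08). The difference was -0.13 ± 0.13, with a 95% interval from -0.41 to 0.15 (limma adjusted p = 0.578). Without control replicate 4 it was -0.23, from -0.44 to -0.01 (0.132). Acadm ran from 14.39 to 14.97 in failing hearts (median 14.71) and from 14.21 to 15.13 in controls (median 14.99). It differed by -0.20 ± 0.16 (0.47), and by -0.33 without control replicate 4, which was the lowest of the 12 in both genes (0.0762). Acads, for short chains, differed by -0.31 ± 0.22 (0.399), and by -0.48 without that heart (0.0947).

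The hydratase and the hydroxyacyl dehydrogenases carry out the middle of the round. Hadh, which oxidises medium and short hydroxyacyl chains, ran from 11.94 to 13.09 in failing hearts (median 12.50) and from 12.49 to 14.03 in controls (median 13.55). Control replicate 4, at 12.49, lay inside the range of the failing hearts, and the others at 13.31 or more lay above it. Hadh fell by 0.92 ± 0.24, 1.9-fold (limma adjusted p = 0.0476), and by 1.12, 2.17-fold, without that heart (0.00923). Its second probe set was dim.

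Echs1, the short-chain hydratase, ran from 11.16 to 12.15 in failing hearts (median 11.92) and from 11.51 to 12.49 in controls (median 12.39). Its failing hearts were spread widely, with replicates 3 and 6 lowest, yet all lay below the 5 controls other than replicate 4. Echs1 differed by -0.51 ± 0.21 (limma adjusted p = 0.158) and fell by 0.66 without that heart (0.037).

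Hsd17b10, a dehydrogenase of branched and short chains that is also a subunit of mitochondrial RNase P, ran from 12.43 to 12.93 in failing hearts (median 12.66) and from 12.57 to 13.51 in controls (median 13.21). A single failing heart, replicate 5, reached the controls once replicate 4 was left out. The difference was -0.45 ± 0.15 (limma adjusted p = 0.0965) and -0.56 without control replicate 4, where it fell (0.0198).

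Hadha and Hadhb, the subunits of the trifunctional protein that carries out the later steps on long chains, share the divergent promoter printed above. Hadha ran from 12.59 to 13.20 in failing hearts (median 12.77) and from 12.57 to 13.47 in controls (median 13.02), and Hadhb from 14.21 to 14.77 (median 14.58) and from 14.03 to 14.88 (median 14.74). The groups overlapped in both genes, with and without control replicate 4. Their differences were -0.17 ± 0.16 and -0.13 ± 0.16 (limma adjusted p = 0.54 and 0.631), and -0.26 each without it (0.247 and 0.183). The 2 dim probe sets of Hadha stood at 1.58 and -0.34 and disagreed in sign.

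The thiolase Acaa2 closes the round by cutting off acetyl-CoA. Its brighter probe set ran from 13.58 to 14.51 in failing hearts (median 13.95) and from 13.83 to 14.92 in controls (median 14.55). The dimmer ran from 7.24 to 7.91 (median 7.79) and from 6.83 to 9.28 (median 8.73). On the dimmer the 5 controls other than replicate 4 began at 8.41, clear of all failing hearts, and on the brighter they overlapped. The differences were -0.48 ± 0.21 and -0.81 ± 0.34 (limma adjusted p = 0.168 and 0.154), and both fell without that heart, by 0.61 and 1.15 (0.0445 and 0.00893).

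Chains with double bonds need the isomerases Eci1 and Eci2 and the reductase Decr1. Eci2 ran from 11.86 to 12.52 in failing hearts (median 12.11) and from 11.96 to 13.23 in controls (median 12.76), and without control replicate 4 the groups did not overlap. It differed by -0.53 ± 0.19 (limma adjusted p = 0.108) and fell by 0.68 without that heart (0.0179). Eci1 differed by -0.44 ± 0.23 on a probe set of the kind that can match several transcripts, and by -0.96 ± 0.55 on another, where failing replicate 6 alone stood at 3.68. These were, without control replicate 4, -0.57 and -1.06, with no call (0.0942 and 0.239). Decr1 differed by -0.23 ± 0.17 (0.42), and by -0.31 in that fit (0.232).

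Ehhadh, the bifunctional enzyme of peroxisomal oxidation, was the only member grouped here under that step with a probe set of its own. It ran from 6.69 to 7.38 in failing hearts (median 6.91) and from 6.60 to 7.97 in controls (median 7.76). Hearts of both groups lay below 6.94, so this gene was measured near the dim end. Ehhadh differed by -0.58 ± 0.22 (limma adjusted p = 0.122) and fell by 0.76 without control replicate 4 (0.0155).

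Electrons of the first dehydrogenation pass to Etfa and Etfb, the subunits of the electron transfer flavoprotein, and then to Etfdh, its oxidoreductase. Etfdh ran from 12.27 to 12.84 in failing hearts (median 12.62) and from 12.31 to 13.34 in controls (median 13.11), and the controls other than replicate 4 began at 12.96, above all failing hearts. Its difference was -0.43 ± 0.17 (limma adjusted p = 0.133), and it fell by 0.57 without that heart (0.0169). Etfa ran from 13.13 to 13.58 in failing hearts (median 13.39) and from 12.93 to 13.90 in controls (median 13.70). Etfa differed by -0.24 ± 0.16 (0.362) and fell by 0.37 without control replicate 4 (0.0465). Etfb differed by -0.28 ± 0.19 and by -0.34 in the same fits, with no call (0.368 and 0.238).

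In all, 9 genes had every failing heart below the 5 controls other than replicate 4 (Acsl1, Cpt1b, Cpt2, Crat, Echs1, Hadh, Acaa2, Eci2 and Etfdh), beside 753 of all probe sets tested (4.85%). Over all 12 hearts 0 members were separated in this way, beside 131 probe sets (0.844%).

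The uncoupling proteins of the inner membrane were followed as well, since Ucp3 responds to fatty acid supply. On its brighter probe set Ucp3 ran from 7.47 to 8.62 in failing hearts (median 7.70) and from 8.04 to 8.93 in controls (median 8.69). Failing replicates 1 to 4 lay below all controls, and replicates 5 and 6 lay among them. The difference was -0.66 ± 0.22 (limma adjusted p = 0.0941), with -1.18 ± 0.38 on the dimmer (0.0846). Neither passed without control replicate 4 (-0.62 and -1.24, 0.095 and 0.0622), which was not low for this gene, and both passed without failing replicate 5 (0.0355 and 0.0233). Ucp2 differed by -0.08 ± 0.13 (0.743), and by -0.08 without control replicate 4 (0.716).

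Most of the members moved together across hearts. The mean of the 31 genes, each centred on its 12-array mean, was -0.15 ± 0.18 (SD, n = 6) in failing and 0.15 ± 0.27 (SD, n = 6) in control hearts. Control replicate 4 stood at -0.29, below 5 of the 6 failing hearts, and the other controls averaged 0.24 ± 0.17 (SD, n = 5). Failing replicate 3, at -0.42, was the lowest of the 12, and control replicate 1, at 0.44, the highest. Among the 22 genes of shuttle, oxidation and electron transfer, failing replicate 3 was the lowest failing heart in 18, control replicate 1 the highest control in 18, and control replicate 4 the lowest control in 20.

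**Figure D3:**
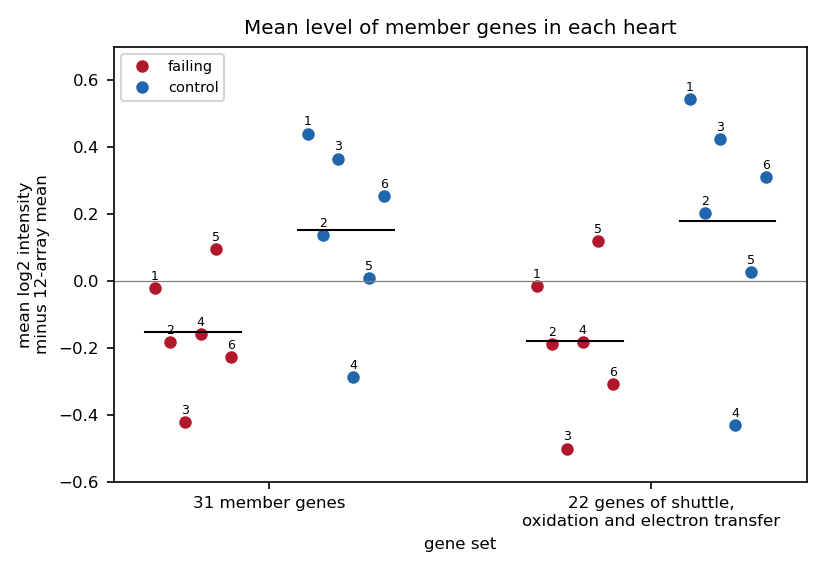
Mean centred log2 intensity of the 31 genes tested (left) and of the 22 genes of carnitine shuttle, mitochondrial oxidation and electron transfer (right) in each heart, numbered by replicate, with group means as lines. Control replicate 4, at -0.29 and -0.43, lies below the mean of the failing hearts, while failing replicate 5, at 0.10 and 0.12, lies above control replicate 5.

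After the group means were removed, pairs of the 31 genes had a median Pearson r of 0.73 over 12 hearts (465 pairs), and 0.58 over the 11 hearts without control replicate 4, beside 0.004 and 0.006 for all 9409 genes. These are descriptions, since all genes share the same 12 arrays and their quality. Hsd17b10 followed the other members most closely, with a median r of 0.87, and Hadh had 0.86. Acsl3, Acsl4 and Acsl5 ran against the others (-0.44, -0.70 and -0.68), and Ucp2, Ucp3 and Cpt1a ran without relation to them (0.01, 0.02 and 0.12). These values per gene are over all 12 hearts and were not computed without control replicate 4. That heart was the highest control in Acsl3, Acsl4 and Acsl5 on the probe sets used.

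**Figure D4:**
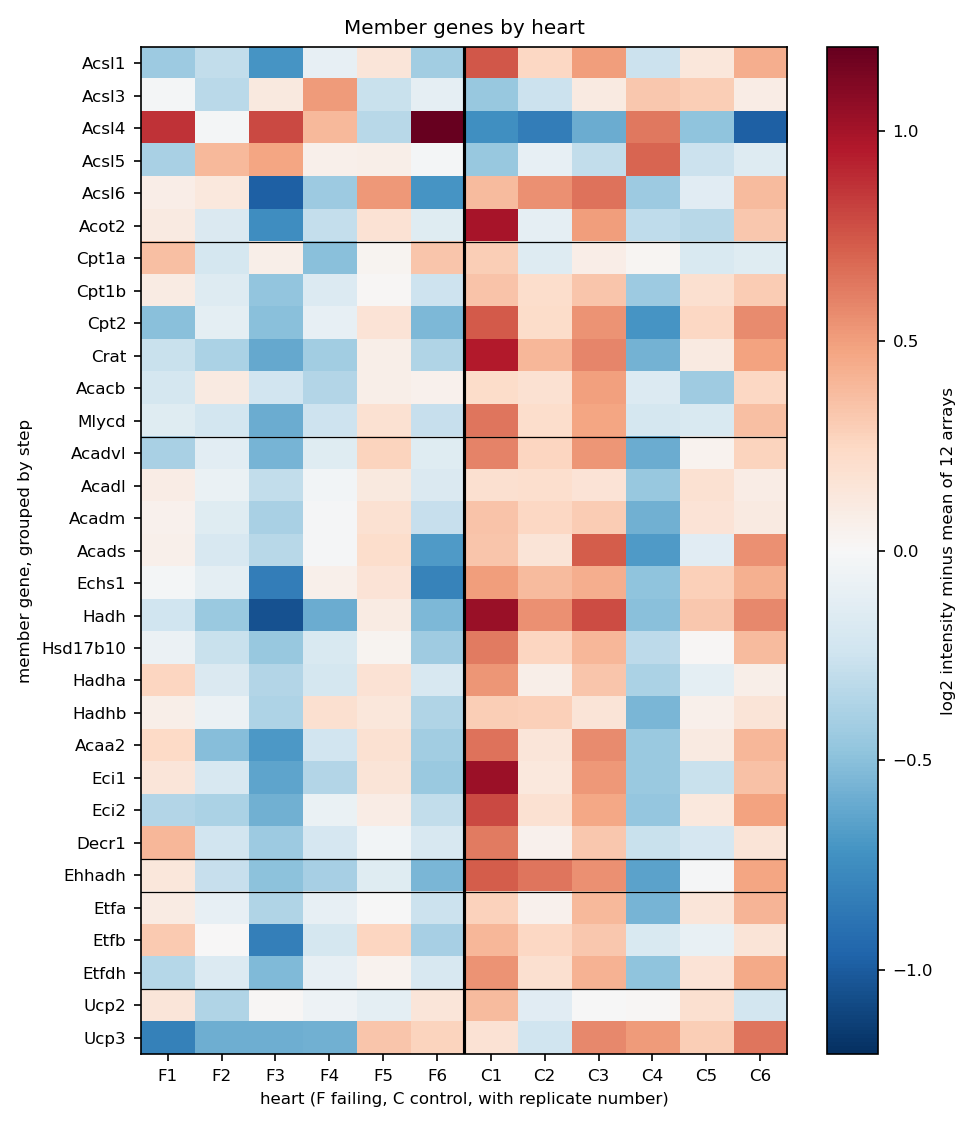
Log2 intensity of each of the 31 genes (rows, grouped by step) in each heart (columns) minus the gene's mean over 12 arrays, red above and blue below. The columns of failing replicate 3 and control replicate 4 are blue through most oxidation genes, and Acsl4 has the opposite pattern.

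Array measures that differed for control replicate 4 are given beside this. The 3' minus 5' difference of the control probe sets for Gapdh and beta-actin is a sign of RNA quality, larger where RNA is more degraded. It was lowest of all, and so least biased to the 3' end, in this heart (0.36, beside 0.441 to 0.778 in the other controls and 0.503 to 0.698 in failing hearts). Its median intensity was the highest (143.9, beside 120.6 to 136 in all others). Its summed blood cell markers, at 43500, were the highest of the controls. The part of these in its low oxidation genes was not tested. With the RNA quality measure as a covariate 2 member probe sets fell with all hearts, beside 1.99% of all tested, and 14 without control replicate 4, beside 5.97%.

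Other genes of the pathway were read from 3 further lists with 1 probe set per gene. Of all 9409 genes read this way, 1.63% fell and 2.83% rose with 12 hearts, and 7.94% and 6.41% without control replicate 4. Of 27 further genes of mitochondrial oxidation and carnitine, 25 were tested, 2 fell, 0 rose, and 9 fell without control replicate 4, with a median difference of -0.30 (-0.42 without that heart). The 2 were Acot13, a mitochondrial thioesterase (-0.88 ± 0.21, limma adjusted p = 0.0387), and Mmut, the methylmalonyl-CoA mutase of propionate breakdown (-0.62 ± 0.15, 0.0412). Of 30 genes of peroxisomes and other compartments, 25 were measured and 20 tested, with 2 fallen, 0 risen and 5 fallen without control replicate 4, and a median of -0.27 (-0.32). The 2 were Acot7, a cytosolic thioesterase (-0.64 ± 0.13, 0.029), and Acox2, a peroxisomal oxidase of branched chains and bile acid precursors (-0.90 ± 0.22, 0.0419).

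Of 28 regulators and further targets around PPAR-alpha, 26 were measured and 23 tested. Ppara itself (mean 6.79) was below the brightness limit and was not tested. Among them 2 fell, 0 rose, and 5 fell without control replicate 4, with a median of -0.13 (-0.22 without that heart). Ppargc1b, a coactivator of these receptors, fell by 0.76 ± 0.13 (limma adjusted p = 0.0182), and Plin5, which coats lipid droplets at mitochondria, by 0.99 ± 0.23 (0.0358). All 3 lists had more genes below 0 than above, with 21 and 4, 17 and 3, and 18 and 5.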

How the data were processed

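Total RNA of 6 failing and 6 control rat hearts (6 µg each) was labelled with biotin as cRNA and hybridised to 1-colour arrays, per the labels' protocols. The authors deposited 1 table of linear intensity values with 31099 probe sets (0 columns belonged to no sample). RMA is named, without a version, in the submitters' processing notes. The intensities have a mean of 500.19 to 500.23 after trimming 2% from each end, as a global scaling gives, so the summary method is not settled, and a global change in expression would be scaled away. One label field speaks of a cell line where the tissue field gives heart.

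The log2 of each intensity was taken without an offset. After leaving out 57 control probe sets, 31042 remained, 20826 of them with 1 gene symbol, 436 with several and 9780 with none. The brighter 15521 were fitted with limma 3.58.1 in R 4.3.3 (lmFit, then eBayes, on the 2 groups without covariates). P-values are two-sided and adjusted after Benjamini-Hochberg over all of them, with calls at 0.05. Where a gene had several probe sets, that with the highest mean stood for it in counts of genes. SEs are limma's moderated ones. The fit was tested on simulated data. Intervals are 95%. The number of arrays limits the precision.

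Members, their steps, the 3 further lists (other mitochondrial oxidation and carnitine genes, peroxisomal and other extra-mitochondrial acyl-CoA genes, and PPAR-alpha with its coactivators and targets), the cell type markers, the filter and the fit without control replicate 4 were chosen with earlier results of these data known. Every member is named. Values per heart are given for genes called in either fit and for Cpt1b, Cpt2, Acadm, Acadl, Acadvl, Hadha, Hadhb, Acsl1 and Ucp3. Of each further list up to 2 called genes per direction are named. Same-numbered hearts did not deviate together (correlations -0.06 to 0.232). Figures were drawn with matplotlib 3.10.9. Alternatives covered the filter on dim probe sets, the upper quartile, 1 probe set per gene, an intensity trend, array weights, quantile normalization, median centring, an offset of 32, an exact rank-sum permutation test, the replicate number as a block, an RNA quality covariate, a threshold of 0.10 and leaving out each heart. Those on the fit without control replicate 4 were added after the data were seen.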

Additional observations from a re-analysis of the deposited data

Results flagged for a closer look

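Each group of 6 hearts was searched for a highest or lowest heart whose gap to the next, divided by the range of the group, passed Dixon's critical value. Of 90 groups 13 passed, where chance gives about 1 in 20, or 4.5. The probe sets share the same hearts, so these are not independent. In 11 of the 13 the heart was control replicate 4.

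Control replicate 4 passed this value as the lowest control for 9 genes of shuttle, oxidation and electron transfer. The gap was 0.827 of the range in Acadl (14.45), 0.807 in Cpt1b (13.13, next 13.76), 0.784 in Echs1 (11.51, next 12.28) and 0.741 in Acadm (14.21, next 14.89). It was 0.717 in Hadhb (14.03, next 14.64), 0.644 in Acaa2 on its dimmer probe set (6.83, next 8.41) and 0.64 in Cpt2 (11.18, next 12.10). In Etfa it was 0.631 (12.93, next 13.54) and in Etfdh 0.63 (12.32, next 12.96). The same heart was the highest control for the synthetases Acsl4, with 0.692 (10.03, next 8.91), and Acsl5, with 0.687 on the brighter of its probe sets (10.13, next 9.33).

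Failing replicate 6 accounted for the other 2, as the highest failing heart on a dim probe set of Hadha, with 0.733 (the next at 6.55), and the lowest on the dimmer probe set of Eci1, with 0.693 (3.68, next 6.55).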

How the results depend on the processing

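The median difference of the member probe sets stayed below 0 under all alternatives run (-0.2787 to -0.5195 when each heart was left out), while the counts of calls moved. With 12 hearts, the 2 lower members became 0 with no filter on dim probe sets, 0 by the exact rank-sum permutation test, 1 with median centring, 16 with array weights, 7 at an adjusted p of 0.10 and 0 to 15 when each heart was left out. The 0 higher members became 1, Acsl4, above the upper quartile, with 1 probe set per gene, with array weights and at 0.10, and 0 to 1 when each heart was left out. Over all brighter probe sets the 429 higher became 0 with no filter, 0 by the rank-sum test, 1203 with array weights and 1013 at 0.10. They became 508 above the upper quartile, 384 with 1 probe set per gene and 20 to 1035 when each heart was left out. The upper-quartile fit and that with 1 probe set per gene tested fewer probe sets, and their shares of calls were not computed. The 230 lower became 0 with no filter, 0 by the rank-sum test, 407 above the upper quartile, 419 with an intensity trend, 1067 with array weights, 136 with median centring (395 higher), 819 at 0.10 and 4 to 1048 when each heart was left out. With the replicate number as a block, which does not pair these hearts, 0 members and 59 probe sets in all were lower, and 222 were higher. Without control replicate 4, no filter gave 0 lower and 0 higher members, array weights gave 2 higher, and leaving out each further heart gave 9 to 20 lower and 1 to 2 higher. For array weights and the further hearts in this fit, the share of all probe sets was not computed. Acsl3 reversed to 0.0173 with array weights (-0.138 to 0.029 when each heart was left out), and Cpt1a reversed to -0.0938 (-0.043 to 0.129). The cause of these changes was not tested. The rank-sum test called 0 of all brighter probe sets, so its 0 for the members says nothing about the pathway. Dim probe sets spread widely after log2 and limit what can be said of 6 member probe sets.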
